A study of Mus musculus with 12 samples.

Results

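The 33 genes described here are protein-coding genes of the mouse that are known to be imprinted, and they were taken from a list of names drawn up with earlier results of these data known. They are 33 of the 35580 genes of the table, and their 232 annotated isoforms are among 115270 transcripts. Of the 33, 32 passed the filter on low values, as did 148 of the 232 isoforms. Phlda2, a placental growth regulator with a pleckstrin homology domain, did not pass: it was listed at 0 in 9 of the 12 libraries and at 0.217, 0.861 and 0.653 scaled TPM in control 1, ethanol 1 and ethanol + stress 2. By background knowledge of most tissues where they are imprinted, 19 of the genes are expressed from the paternal copy, 9 from the maternal copy, and in 5 the copy depends on the isoform or tissue.

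Imprinted genes are read mainly from the copy inherited from one parent, because a methylation mark set in the egg or sperm silences the other copy or the transcript that controls it. They lie in clusters that share a control region, many act on fetal growth and placental function, and a large group is expressed in the brain. In neurons some clusters differ from other tissues, such as Ube3a, which is maternal in neurons, and Grb10, which has a paternal neuronal promoter.

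RNA was measured in 12 hippocampi of adult male mice of C57BL/6J stock, labelled C57BL/6 (postnatal day 70), with 3 mice in each of 4 groups. The dams of the ethanol and ethanol + stress mice could choose between water and 10% ethanol in water, and the dams of the control and stress mice had water alone. Ethanol was on offer before mating, withdrawn during mating, and on offer again through gestation until postnatal day 10. The exposure was thus prenatal and early postnatal. Stress and ethanol + stress pups spent 3 h a day alone, away from the dam and the litter, from postnatal day 2 to 14, and the other pups were not separated. Maternal drinking was voluntary and blood alcohol was not taken. The litter of each mouse is not given in the labels, so the spread between mice includes any spread between litters. Separation was assigned to pups within a litter and ethanol to the dam. Mice with and without separation may therefore be littermates, and any such pairing was not modelled. Both parental genomes are of the same inbred strain, so the reads do not tell the copies apart, and every statement on a copy here is background. A value is the scaled TPM of the deposited table, which is corrected for transcript length, and a gene's value is the sum over its isoforms.

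The libraries held 12050000 to 14970000 read pairs, estimated from the steps between low values. All 8 markers of hippocampal neurons had values in every library, with sums of 2330 to 2630, most of them from Snap25 and Camk2a. Markers of choroid plexus, a tissue that lies against the hippocampus, had sums between 41.2 and 7253. The summed values of 5 blood markers were 1603 to 2022 in control and 2454 to 6815 in treated libraries, which did not overlap. Ethanol 2, ethanol + stress 2 and ethanol + stress 3 had the 3 lowest slopes of value on transcript length, at -0.106, -0.123 and -0.059 (log2 value per log2 length, over 1464 coding genes with 1 transcript), against -0.024 to 0.081 in the other 9 libraries. No wide gap separates them, since ethanol + stress 3 lies nearer to ethanol 1 at -0.024 than to ethanol 2, and they are named below as the 3 libraries of low length slope.

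The imprinted genes spanned a wide range of levels in hippocampus. The highest was Gnas, which encodes the stimulatory G protein alpha subunit, at 1101 to 1256 scaled TPM over the 12 libraries. Snrpn, a core protein of splicing particles in neurons, followed at 566 to 726, and Nnat, a small membrane protein of the endoplasmic reticulum, at 429 to 573, so that the ranges of these neighbours met. Nap1l5, of the nucleosome assembly protein family, was at 237 to 308, Impact, an inhibitor of the translation kinase Gcn2, at 157 to 208, and Rasgrf1, a calcium-responsive Ras activator, at 133 to 200. At the other end, Magel2 was at 0.352 to 1.2, Rtl1 at 0.485 to 0.978, Dlk1 at 0.496 to 1.85 and Mkrn3 at 0.682 to 1.67, and their ranges overlapped. Gnas varied least over the libraries, by 1.14-fold between lowest and highest, and Zim1, a zinc finger gene at 0.742 to 4.32, varied most, by 5.82-fold. Of the Zim1 value, 63.2% came from a short processed transcript, Zim1-204, on 0 to 4.8 read pairs per library.

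Few imprinted genes differed between the treatments and control. Gene sums were compared by limma on log2(value + 0.5) in a model of all 4 groups, and a gene was called at an unadjusted p under 0.01. In ethanol against control 0 of 32 imprinted genes were called, beside 0.678% of all 18434 genes tested. In stress against control 0 of 32 were called, beside 0.51% of all genes. In ethanol + stress against control 1 of 32, Igf2, was called, beside 0.971%. The interaction of ethanol and stress gave 0 beside 0.461%, the ethanol main effect (the mean of the ethanol effects with and without stress) 0 beside 1.12%, and the stress main effect 0 beside 0.586%. At an unadjusted p under 0.05 these counts were 1, 1, 3, 0, 3 and 2 of 32, beside 3.63%, 2.4%, 5.37%, 2.69%, 5.79% and 3.28% of all genes. After Benjamini-Hochberg adjustment over all genes, 0 imprinted genes were under 0.05 in each of the 6 comparisons. A count of 0 or 1 among 32 genes is near what those shares of all genes give.

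The differences were small and their errors set how small. The standard error of a log2 fold change from control was 0.082 to 0.371, with a median of 0.161 and the highest for Zim1. On the fitted log2 scale, the change was under 1.5-fold for all 32 genes in the ethanol and the stress comparison. In ethanol + stress this held for 31 genes, the exception being Zim1. Ratios of the values themselves can be larger than on the fitted scale. Plagl1, counted as under 1.5-fold, had mean values of 7.52 scaled TPM in control and 4.95 in ethanol + stress. The 95% interval of the change lay within 1 on the fitted log2 scale in both directions for 32, 31 and 28 of the 32 genes. A 2-fold change on that scale was thus outside the interval of most members and not of all. For low members such as Magel2, Mkrn3, Dlk1 and Rtl1, this need not exclude a 2-fold change of the value itself. An interval within 1.5-fold on the fitted scale was reached by 20, 22 and 16 genes.

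**Figure D1:**
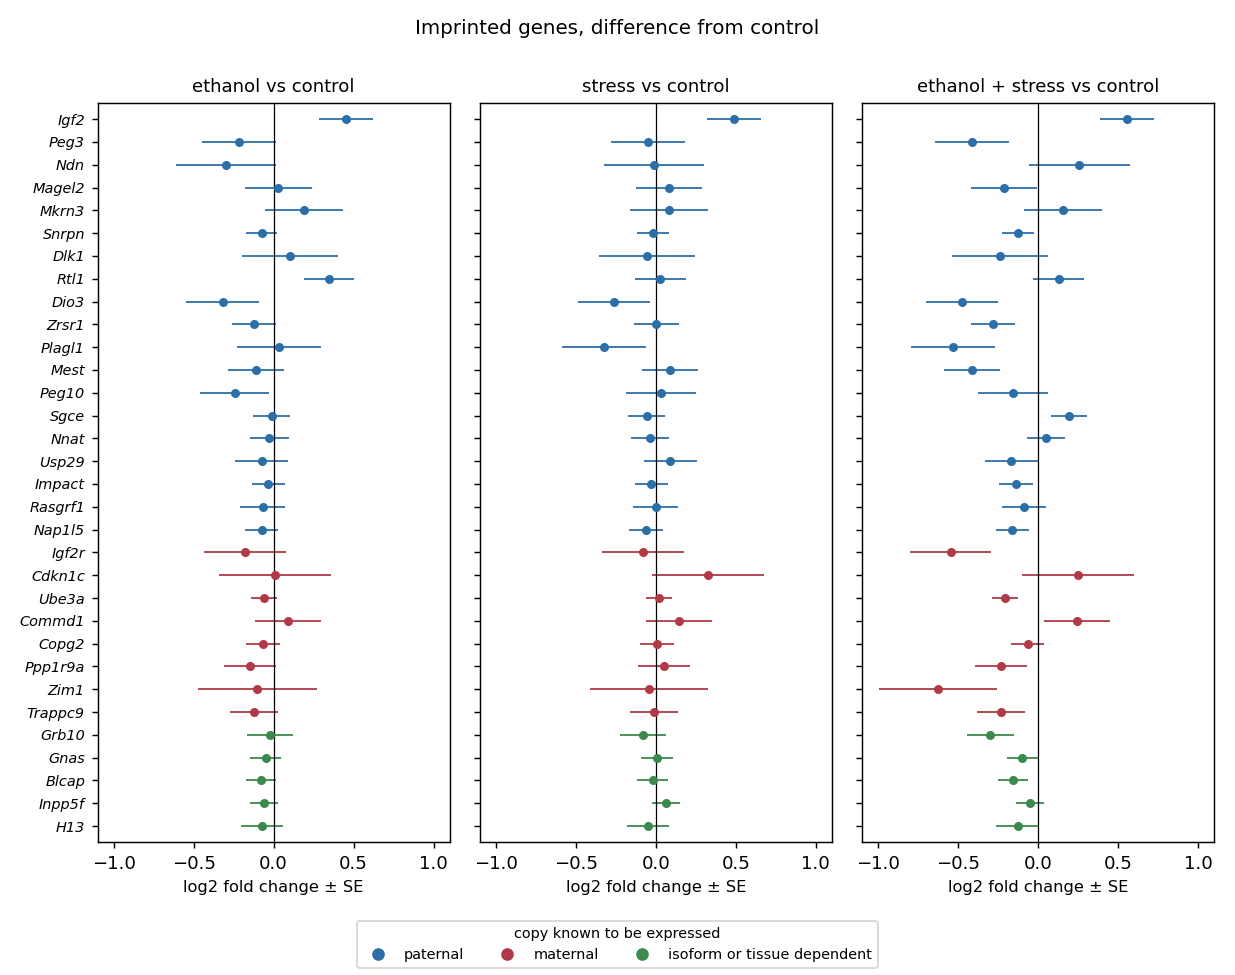
Log2 fold change from control with its standard error (x axis) for the 32 imprinted genes that passed the filter (y axis), with 1 panel for each treated group of 3 mice. Colours give the copy known to be expressed in most tissues where the gene is imprinted, not a copy measured here. Igf2 is the highest in all 3 panels, at 0.45, 0.49 and 0.56, and in ethanol + stress 8 of the 32 points lie above 0.

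In the 2 ethanol-exposed groups most imprinted genes had values a little below control. In ethanol mice 8 of 32 were higher than control and the median log2 difference was -0.067, beside 55.6% of all genes higher and a median of 0.023. In ethanol + stress mice 8 of 32 were higher with a median of -0.157, beside 54.1% and 0.023. In stress mice 15 of 32 were higher with a median of -0.007, beside 51.5% and 0.004. By copy, the ethanol + stress medians were -0.157 over 19 paternal genes, -0.218 over 8 maternal genes and -0.127 over the 5 isoform-dependent genes. These 3 comparisons share the control mice, and no list was tested. Without the 3 libraries of low length slope, 13 of 32 were higher in ethanol (median -0.024) and 14 of 32 in ethanol + stress (median -0.014). With the length trend removed from each library instead, 6 of 32 were higher in ethanol (median -0.085, all genes -0.006) and 7 of 32 in ethanol + stress (median -0.151, all genes 0.003). Of single libraries, leaving out ethanol 2 gave a median of -0.024 in ethanol and leaving out ethanol 3 gave -0.123. Leaving out ethanol + stress 2 gave -0.071 in ethanol + stress. Rescaling each library to the same sum moved the median of all genes in ethanol + stress to -0.092 (34.2% of all genes higher) and that of the imprinted genes to -0.28, with 7 of 32 higher. In ethanol it moved them to -0.048 (38.5% higher) and -0.149, with 5 of 32 higher.

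Igf2 encodes insulin-like growth factor 2, a growth factor that is paternally expressed in most fetal tissues and known to come from both copies in choroid plexus and leptomeninges, its main sources in the brain. It had the smallest p of the imprinted genes in each comparison of a treated group with control. The gene lies on the minus strand at chr7:142650766-142666816 (GRCm38). Igf2 was at 18.9, 14.2 and 17.3 scaled TPM in control mice. It was at 27.1, 22.1 and 20.4 in ethanol mice, 19.4, 27.4 and 24.7 in stress mice, and 23.9, 29.6 and 21.5 in ethanol + stress mice. All 9 treated values lay above all 3 control values. Igf2 was the 1 imprinted gene of which this held, beside 0.391% of all genes that were higher and 0.206% that were lower in all 9 treated libraries, and 0 imprinted genes were lower in all 9.

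Igf2 was called higher in ethanol + stress mice, with a log2 fold change of 0.56 (95% interval 0.19 to 0.93, adjusted p = 0.791 by limma). It was not called in ethanol (0.45, SE 0.17, adjusted p = 0.997 by limma) or in stress (0.49, SE 0.17, adjusted p = 1). The unadjusted p by limma was 0.00643 for both treatments together, 0.0199 for ethanol alone and 0.0137 for stress alone. The call did not hold when values were rescaled to the same sum (0.42), with the replicate number as a block (0.56) or with coding transcripts alone (0.52). It also did not hold without control 2 (0.45), control 3 (0.58), ethanol + stress 1 (0.58), ethanol + stress 2 (0.43) or the 3 libraries of low length slope (0.51). The interaction was -0.38 on the log2 scale (95% interval -0.90 to 0.14, adjusted p = 1 by limma). A departure of the joint difference from the sum of the 2 separate differences was therefore not shown. The joint treatment was not compared with either separate treatment. The level rested on 283 to 595 read pairs per library.

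Most Igf2 came from a single start region. Igf2-201 and Igf2-202, which start at chr7:142657466-142657496, held 69.4% of the gene's value. They summed to 12.6, 12 and 11.7 scaled TPM in control, 16.3, 15.6 and 13.2 in ethanol, 13, 19.9 and 17.2 in stress, and 17.4, 21.7 and 14.6 in ethanol + stress, again with every treated value above the control values. The short isoform Igf2-208 held 28% on 8 to 64 read pairs. Of the 31-base words of Igf2-201 and Igf2-202, 97% and 94.5% also occur in Gm49394, a gene model that overlaps the locus, which was listed at 0 to 0.305 in every library. The 250 bases before the RefSeq start of Igf2-201 (chr7:142657497-142657746, minus strand, GRCm38.p6) are shown because that start carried most of the gene's value, with CG dinucleotides, the sites of imprint methylation, in capitals.
Igf2 promoter of Igf2-201: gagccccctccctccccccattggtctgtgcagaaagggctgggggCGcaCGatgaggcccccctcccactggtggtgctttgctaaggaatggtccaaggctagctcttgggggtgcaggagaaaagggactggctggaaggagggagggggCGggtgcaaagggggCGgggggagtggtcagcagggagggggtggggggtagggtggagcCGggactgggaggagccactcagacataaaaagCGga
The stretch holds 6 CG dinucleotides, the median over the 32817 promoters of the RefSeq table. Methylation was not analysed here.

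Blood markers were higher in the treated groups, as Igf2 was, and choroid plexus markers differed in direction between them. All 5 blood markers were called higher in ethanol and in ethanol + stress. Of the 7 choroid plexus markers 0 were higher than control in ethanol (median log2 difference -0.807), 7 in stress (1.07) and 7 in ethanol + stress (0.36), and 0 were called in each. The 3 libraries with the highest choroid plexus sums (ethanol 1 at 3538, stress 2 at 5291 and ethanol + stress 2 at 7253) had the 3 highest Igf2 values, at 27.1, 27.4 and 29.6. The 3 libraries with the lowest sums (41.2 in ethanol 3, 85.1 in ethanol 2 and 208 in ethanol + stress 3) had Igf2 at 20.4, 22.1 and 21.5, and the control mice, whose sums were 622 to 1848, had 14.2 to 18.9. The part of blood and of choroid plexus in the Igf2 difference was not tested. None of the 7 choroid plexus markers was at 0 in any library. The 8 markers of meningeal and vascular fibroblasts summed to 156 to 178 in control and 147 to 206 in treated libraries. Of these, Igfbp2, which binds Igf2, was highest at 75, 95.4 and 105 in the 3 libraries of highest Igf2, against 32.2 to 57.6 in the others, while Dcn, which is decorin, was lowest in stress 2 and ethanol + stress 2, at 68.7 and 69.8. The part of these cells was not tested either. In bulk tissue, fewer cells of a type and less RNA per cell cannot be told apart.

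**Figure D2:**
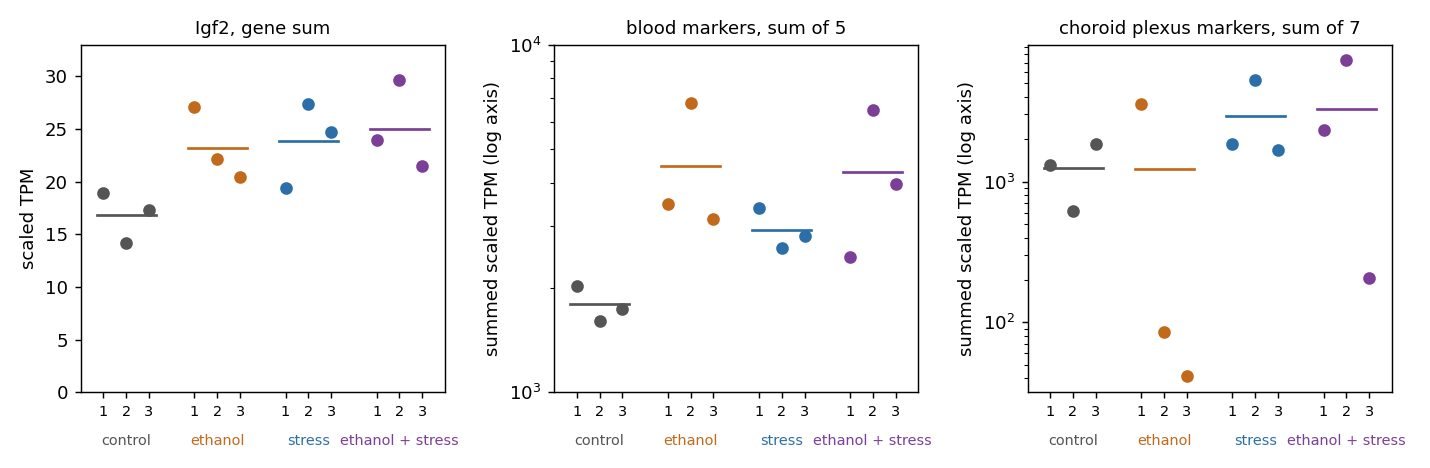
Igf2 (left, scaled TPM, linear axis from 0), summed blood markers (middle, log axis) and summed choroid plexus markers (right, log axis) in each library, with replicate numbers on the x axis and lines at group means. Igf2 and the blood sum lie above the control libraries in all 9 treated libraries, while the choroid plexus sum runs from 41.2 to 7253 within the treated groups.

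Igf2r, Cdkn1c and Plagl1 were not called in the fit of all libraries. Igf2r, the receptor that carries Igf2 to lysosomes, known as maternal in most tissues and as expressed from both copies in neurons, was at 14.3, 16.4 and 15.6 scaled TPM in control and 15.7, 8.08 and 8.75 in ethanol + stress (log2 -0.55, SE 0.25, adjusted p = 0.791 by limma), the lower 2 of which were libraries of low length slope. Cdkn1c, a maternally expressed inhibitor of cyclin-dependent kinases, was at 6.32 to 7.09 in control and 4.04 to 12.4 in treated mice. Its lowest value, 4.04, was in ethanol 3 and its highest, 12.4, in ethanol + stress 2, the libraries with the lowest and highest choroid plexus sums. Plagl1, a paternally expressed zinc finger factor, was at 6.28, 6.28 and 10 in control and 5.33, 5.13 and 4.38 in ethanol + stress, with a stress main effect of -0.44 (95% interval -0.85 to -0.04, adjusted p = 1 by limma) that was not called.

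The Prader-Willi and Angelman cluster on chromosome 7 held the member with the widest gap between libraries. Ndn, necdin, a paternally expressed MAGE protein of neurons, has a single exon at chr7:62346569-62350262 on the plus strand, and 100% of its 31-base words occur in no other transcript. Ndn was at 80.5, 141 and 78.6 scaled TPM in control, 80.8, 80.2 and 74 in ethanol, 152, 69 and 83.4 in stress, and 77.7, 133 and 149 in ethanol + stress. Values fell into 8 libraries at 69 to 83.4 and 4 libraries at 133 to 152, with none between, and the higher set held 1 control, 1 stress and 2 ethanol + stress mice. The gap of 0.67 on the log2 scale ranked 25 among 9320 genes with a mean of 10 or more (gaps with at least 3 libraries on each side), inside the top 0.268%. The values rested on 1822 to 4771 read pairs, and this gap was noticed after the values were seen. The log2 difference from control was -0.30 for ethanol mice, -0.01 for stress mice and 0.26 for ethanol + stress mice, each within its standard error of 0.31.

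Snrpn and Ube3a, neighbours of Ndn, did not share the gap, and Magel2 and Mkrn3 rested on few read pairs. Snrpn was at 645, 681, 671, 622, 633, 640, 726, 633, 618, 663, 607 and 566 in the order of groups above, a 1.28-fold range. Magel2, which recycles endosomal cargo with a ubiquitin ligase, was at 0.781, 1.2, 0.352 and 0.791 in the 4 libraries of high Ndn (control 2, stress 1, ethanol + stress 2 and ethanol + stress 3), the highest of its group in each but ethanol + stress 2, where it was the lowest of all. It rested on 14 to 48 read pairs. Mkrn3, a RING finger protein known for its part in the timing of puberty, was at 1.08, 1.22, 1.24 and 1.39 in the same 4 libraries, each above the other mice of its group with lower Ndn, and at 0.682 to 1.67 in ethanol, where Ndn was 74 to 80.8. It rested on 14 to 35 read pairs. Ube3a, the maternally expressed ubiquitin ligase of Angelman syndrome, was at 71.6, 65.2 and 70.8 in control, 68.7, 64.3 and 65.5 in ethanol, 63.6, 76.5 and 71.2 in stress, and 59.6, 60.7 and 59.5 in ethanol + stress. All 3 ethanol + stress values lay below control, but the change of -0.21 (95% interval -0.38 to -0.03, adjusted p = 0.791 by limma) was not called.

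**Figure D3:**
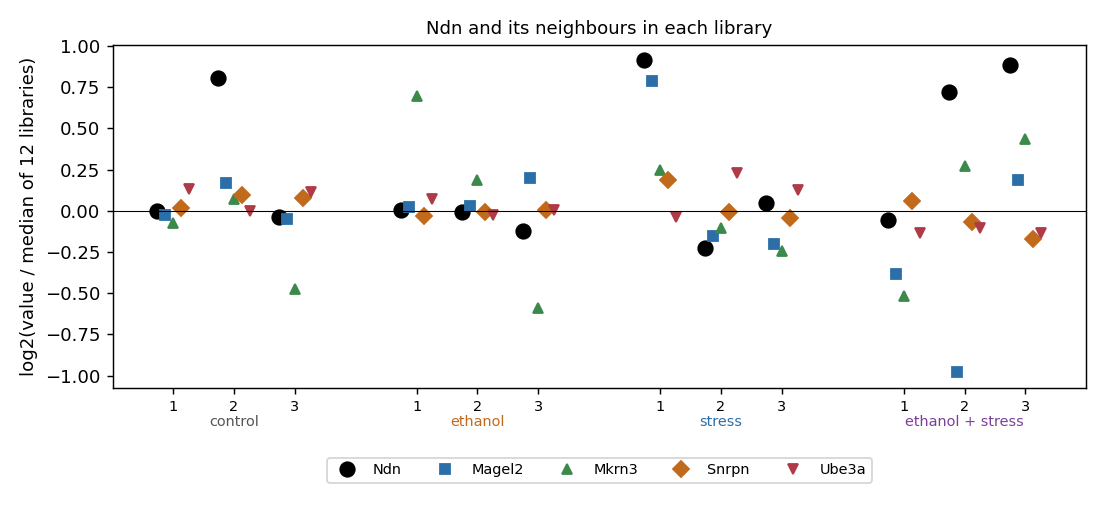
Log2 of each value over the gene's median of 12 libraries (y axis) for Ndn and 4 neighbours on chromosome 7, by library (x axis, replicate numbers within group). Ndn stands at 133 to 152 scaled TPM in 4 libraries from 3 groups and at 69 to 83.4 in the other 8, while Snrpn and Ube3a stay near their medians.

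Some members had all 3 treated values on the same side of the 3 control values. In ethanol 2 of 32 were higher (Igf2 and Rtl1) beside 5.06% of all genes, and 2 were lower (Copg2 and Snrpn) beside 3.19%. In stress 2 were higher (Commd1 and Igf2) beside 3.81%, and 0 were lower beside 3.39%. In ethanol + stress 1 was higher (Igf2) beside 5.63%, and 5 were lower (Gnas, Grb10, Nap1l5, Plagl1 and Ube3a) beside 4.62%. The last count was above the share of all genes, and 2 of the 3 libraries of that group were among those of low length slope.

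Several imprinted genes followed the 3 libraries of low length slope more closely than the treatments. In ethanol 2, ethanol + stress 2 and ethanol + stress 3, 12 of 32 imprinted genes were below the other 9 libraries, beside 9.48% of all genes, and 3 of 32 (Commd1, Nnat and Sgce) were above them, beside 10.3%. This split was made after the data were seen, from the length slopes, and is given without a test. Peg3, a paternally expressed zinc finger protein, was at 40, 38.3 and 39.7 scaled TPM in these 3 libraries and at 53.9 to 71.8 in the others. Trappc9, a maternally expressed subunit of a vesicle-tethering complex, was at 28.1, 29 and 28.7 against 35.6 to 40.7. Ppp1r9a, the actin-binding neurabin of synapses, was at 60.8, 56.2 and 69.1 against 74.8 to 93.5. These are long messages, with mean lengths of 8334, 3734 and 7091 bases.

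Shorter members were also split by these libraries. Blcap, a small conserved protein whose gene hosts Nnat in an intron, was at 62.7, 65.2 and 62.6 against 72.2 to 78.8. Zrsr1, a paternally expressed splicing factor that lies inside Commd1, was at 36.8, 33.5 and 32.6 against 42.1 to 51. Commd1, a maternally expressed regulator of copper handling and NF-kB, went the other way, at 103, 103 and 92.9 against 60.4 to 83.1, with a mean length of 761 bases. Commd1-206 shares 36.1% of its 31-base words with Zrsr1 and Commd1-203 shares 60.1% with Gm28048, so the division of reads between them is uncertain. Zrsr1-202, annotated as a transcribed processed pseudogene, held 55.1% of the Zrsr1 value, and 0% of its 31-base words occur in no other transcript. Astrocyte marker sums were also higher in these 3 libraries, at 927, 931 and 987 against 603 to 805. Blood marker sums were higher in them too, at 6815, 6480 and 3977 against 1603 to 3472. Oligodendrocyte marker sums were 5085, 5908 and 5868 in them against 2638 to 5335, which overlap. Of the 8 neuron markers, 3 were lowest and 1 was highest in exactly these libraries. Wfs1, a marker of CA1 neurons, was at 21.5, 19.8 and 25.7 against 31.8 to 54.8, Grik4 at 15.1, 15.9 and 15.8 against 16.5 to 22.2, Neurod6 at 102, 95.5 and 90.4 against 109 to 145, and Camk2a at 667, 688 and 760 against 462 to 626. The part of these cell types in the split was not tested. The 3 libraries are all from ethanol-exposed mice, and ethanol 1, ethanol 3 and ethanol + stress 1 were not low.

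**Figure D4:**
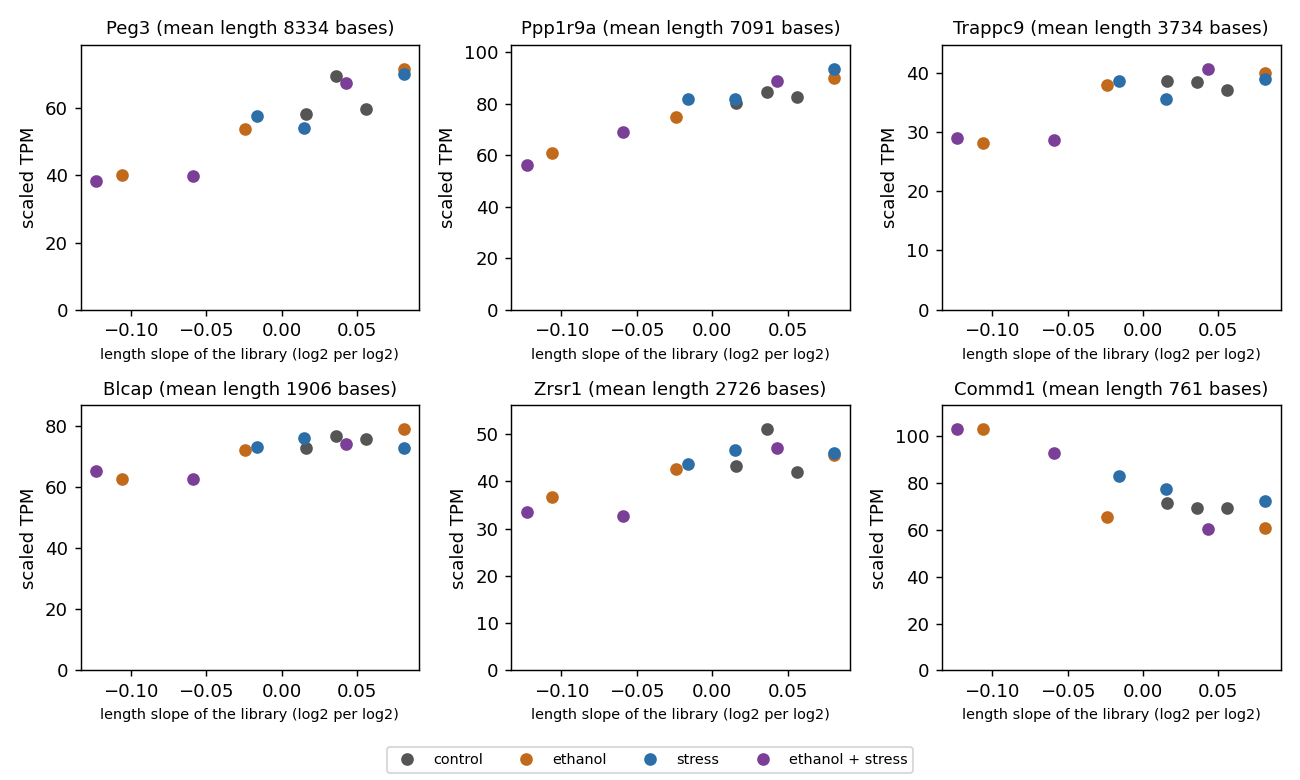
Value of 6 imprinted genes (y axis, scaled TPM from 0) against the length slope of each library (x axis, log2 value per log2 length), 1 point per library coloured by group. The 3 libraries at slopes of -0.059 to -0.123 have the lowest values of Peg3, Ppp1r9a, Trappc9, Blcap and Zrsr1 and the highest of Commd1.

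Leaving out a single mouse changed which members were called. Without ethanol + stress 1, the mouse of that group whose slope was like control, 4 genes were called lower in ethanol + stress: Peg3 (-0.67), Igf2r (-0.83), Zrsr1 (-0.45) and Mest (-0.60), while Igf2 was not. In that fit 4.14% of all genes were called, and 2.29% were called lower. With all libraries Peg3 was at 58.2, 59.9 and 69.6 in control against 67.4, 38.3 and 39.7 in ethanol + stress, which overlap. Mest, a paternally expressed hydrolase of the endoplasmic reticulum, was at 25.9, 21.1 and 23.7 in control and 22.7, 13.4 and 17.7 in ethanol + stress (log2 -0.41, SE 0.17, adjusted p = 0.791 by limma). Zrsr1 had a log2 difference of -0.28 (SE 0.14, adjusted p = 0.791 by limma).

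The Dlk1 and Dio3 cluster on chromosome 12 was expressed at low levels. Dlk1, a membrane protein related to Notch ligands, and Rtl1, a gene of retrotransposon origin that is needed in placenta, were below 2 scaled TPM in every library. Rtl1 was at 0.485, 0.756 and 0.567 in control and 0.891, 0.978 and 0.818 in ethanol, with no overlap. Its log2 difference of 0.35 (SE 0.16, adjusted p = 0.997 by limma) was not called, on 25 to 49 read pairs. Dio3, the deiodinase that inactivates thyroid hormone, was at 5.8, 3.93 and 6.77 in control and 4.36, 3.54 and 3.36 in ethanol + stress (log2 -0.47, SE 0.23, adjusted p = 0.791 by limma). Neither gene passed the test.

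The remaining members were not called. In the Peg3 cluster, Zim1 had the lowest log2 difference of the 32 genes in ethanol + stress, at -0.63 (SE 0.37, adjusted p = 0.791 by limma). It was at 1.75, 2.54 and 2.46 scaled TPM in control, 2.01, 2.47 and 1.7 in ethanol, 1.67, 4.32 and 1.28 in stress, and 0.742, 2.31 and 1.08 in ethanol + stress, on 28 to 53 read pairs. The groups overlapped, and both the highest and the lowest value were in separated mice. Zim1-204, a processed transcript of 408 bases, held 63.2% of the Zim1 sum on 0 to 4.8 read pairs per library. It was at 3.04 in stress 2 and 0 in ethanol + stress 1, the libraries of the highest and the lowest Zim1 sum. In the same cluster, Usp29, a ubiquitin protease gene, was at 14.5 to 23.1 scaled TPM over all libraries. On chromosome 6, Peg10, of retrotransposon origin, was at 1.8 to 4.02, Sgce, the epsilon-sarcoglycan of myoclonus dystonia, at 23.8 to 33.4, and Copg2, a coat protein subunit of transport vesicles, at 55.9 to 76.7. Sgce was at 27.1, 33.4 and 32.4 in ethanol + stress against 26.3, 27.3 and 27.2 in control, and its interaction of 0.26 (SE 0.16) was not called. Each of these genes had 0 calls in the 6 comparisons.

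In 5 of the genes the expressed copy depends on the isoform or tissue, and values were summed by start site. In Gnas, 95.9% of the value came from starts of Gs-alpha at chr2:174330006-174330287, at 1058 to 1200 scaled TPM, a transcript that is biallelic in most tissues. The starts of exon 1A, which is paternal, held 3.84% at 37 to 52.7. The starts of Nesp, which is maternal, were at 0.382 to 2.46 and those of XLas, which is paternal, at 0 to 0.161. The imprinted starts of Gnas were therefore a small share of its sum, and up to 79.2% of the 31-base words of a Gnas isoform are shared with Gm20721, which was at 1.61 to 7.12.

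Grb10, an adaptor that dampens insulin receptor signalling, had 38.4% of its value from Grb10-201, with its start at position 12037401, at 7.69 to 12.3 scaled TPM. Downstream starts at chr11:12026324-12026732 held 45.2% at 8.67 to 16.8, on 21 to 44 read pairs of short models, and Grb10-203 held 11.3% at 1.54 to 5.24. In Inpp5f, an inositol phosphatase whose short form is the imprinted one in brain, the full-length starts held 31.6% at 16.6 to 22, and the starts at chr7:128687546-128688489 held 54.9% at 24.7 to 41. In H13, the signal peptide peptidase, 99.2% came from the first start, and in Blcap 97.1% came from starts at chr2:157566331-157566361. Snrpn-201 held 98% of Snrpn, and Snurf and Gm38393, which share its sequence, were at 247 to 501 and 33 to 45.8.

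Among the 148 isoforms tested, 6 were called in at least 1 comparison. In ethanol 1 was called, beside 1.26% of all 59852 isoforms, in stress 0 beside 0.914%, and in ethanol + stress 1 beside 1.21%. The interaction gave 1 beside 0.854%, the ethanol main effect 2 beside 1.47%, and the stress main effect 2 beside 0.934%. No adjusted p of these isoforms was under 0.05, and at an unadjusted p under 0.05 the limma counts were 12, 4, 5, 5, 8 and 3 of 148, beside 5.43%, 3.88%, 5.57%, 4.06%, 6.52% and 4.14% of all isoforms. With 0 to 2 isoforms called at 0.01, the shares called were near the background.

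Ube3a-211 is a coding model of a short stretch of Ube3a that starts at chr7:59286178, with 5.28% of its 31-base words in no other transcript. It was at 5.07, 4.36 and 3.31 scaled TPM in control and 7.34, 7.9 and 0.292 in stress. It was at 1.67, 0 and 0 in ethanol and was listed at 0 in all 3 ethanol + stress mice. Ube3a-211 fell in the ethanol main effect, by 2.71 on the log2 scale (SE 0.60, adjusted p = 0.468), and in ethanol + stress (-3.23, adjusted p = 0.665). The floor of 3 read pairs was at most 1.01 scaled TPM per ethanol + stress library, 4.21-fold below the control mean of Ube3a-211, 4.25. This floor covers counting error only and not the division of shared reads between isoforms, so it sets no firm bound on the level. The whole signal was 0 to 25.3 read pairs per library, and the call in ethanol + stress was lost without control 1 (-3.11). Without the 3 libraries of low length slope, neither the ethanol main effect (-2.54) nor the ethanol + stress difference (-3.23, with 1 mouse left in that group) was called.

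Mest-211 and Mest-210 share nearly all of their sequence and traded values between libraries. Mest-211 was at 16.8, 12.7 and 12.4 scaled TPM in control, 9.15, 11.7 and 7.39 in ethanol, 14.8, 20 and 16.6 in stress, and 10.7, 10.2 and 11.6 in ethanol + stress. It fell in the ethanol main effect, by 0.59 on the log2 scale (SE 0.13, adjusted p = 0.468). Mest-210 was at 6.45, 0 and 10.2 in ethanol and 5.36, 0.00321 and about 0 in ethanol + stress. With both joined before the fit, the values were 16.8, 15.7 and 14.8 in control, 15.6, 11.7 and 17.6 in ethanol, 14.8, 20 and 16.6 in stress, and 16, 10.2 and 11.6 in ethanol + stress. The joined difference was -0.26 (SE 0.14) and was not called. The pair was joined after its values were seen to trade, and a true change of isoform would also shrink in the sum, so this fit does not bear on the single call. Only 1.15% of the 31-base words of Mest-211 and 1.19% of those of Mest-210 occur in no other transcript.

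The 2 Mest starts lie 4.5 kb apart, and the 250 bases before each RefSeq start on the plus strand (GRCm38.p6) are shown because the isoforms that traded values begin there. CG dinucleotides are in capitals. The first stretch is chr6:30737800-30738049 and the other is chr6:30733256-30733505.
Mest promoter of Mest-211: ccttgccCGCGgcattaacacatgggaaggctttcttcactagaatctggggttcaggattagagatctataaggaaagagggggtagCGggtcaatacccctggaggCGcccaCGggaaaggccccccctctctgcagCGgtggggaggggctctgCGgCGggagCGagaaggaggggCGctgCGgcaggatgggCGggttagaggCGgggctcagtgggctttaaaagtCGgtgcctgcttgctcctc
Mest promoter upstream: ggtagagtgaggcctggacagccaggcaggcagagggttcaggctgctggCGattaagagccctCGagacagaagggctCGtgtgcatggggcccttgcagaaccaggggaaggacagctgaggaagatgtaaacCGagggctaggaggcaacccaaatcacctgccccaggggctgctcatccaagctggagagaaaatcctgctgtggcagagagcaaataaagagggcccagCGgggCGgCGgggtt
The stretch before Mest-211 holds 14 CG dinucleotides, more than 70.7% of the promoters of the table, and the upstream stretch holds 7. TGCCGC, the hexamer bound by the imprint keeper Zfp57 when methylated, occurs 2 times on either strand before Mest-211 and 0 times before the upstream start. It occurs in 8.68% of all 32817 promoter stretches of the same length and in 6 of 40 stretches found for 27 of the imprinted genes. A match is a description of the letters and not of binding.

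Inpp5f-206, a retained-intron transcript, and Inpp5f-208, a short coding isoform, showed the same kind of exchange. Inpp5f-206 was at 7.35, 5.98 and 4.72 scaled TPM in control, 9.83, 8.33 and 9.6 in ethanol, 2.27, 4.3 and 3.26 in stress, and 6.88, 4.22 and 3.68 in ethanol + stress. Its stress values lay below and its ethanol values above the control values, and the stress main effect was -0.84 (SE 0.19, adjusted p = 0.778). Inpp5f-208 was at 14.8, 18.5 and 21.9 in control, 13.1, 12.8 and 18.3 in ethanol, 28.6, 20.6 and 25.7 in stress, and 21.2, 19.9 and 20.2 in ethanol + stress, with a stress main effect of 0.45 (SE 0.13, adjusted p = 0.984). Joined, they were at 22.2 to 26.6 in control and 24.9 to 30.9 in stress, with a stress main effect of 0.14 (SE 0.09) that was not called. This pair was also joined after its values were seen, and opposite changes cancel in a sum. Without the 3 libraries of low length slope, neither Inpp5f-206 (-0.64) nor Inpp5f-208 (0.44) was called in the stress main effect.

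**Figure D5:**
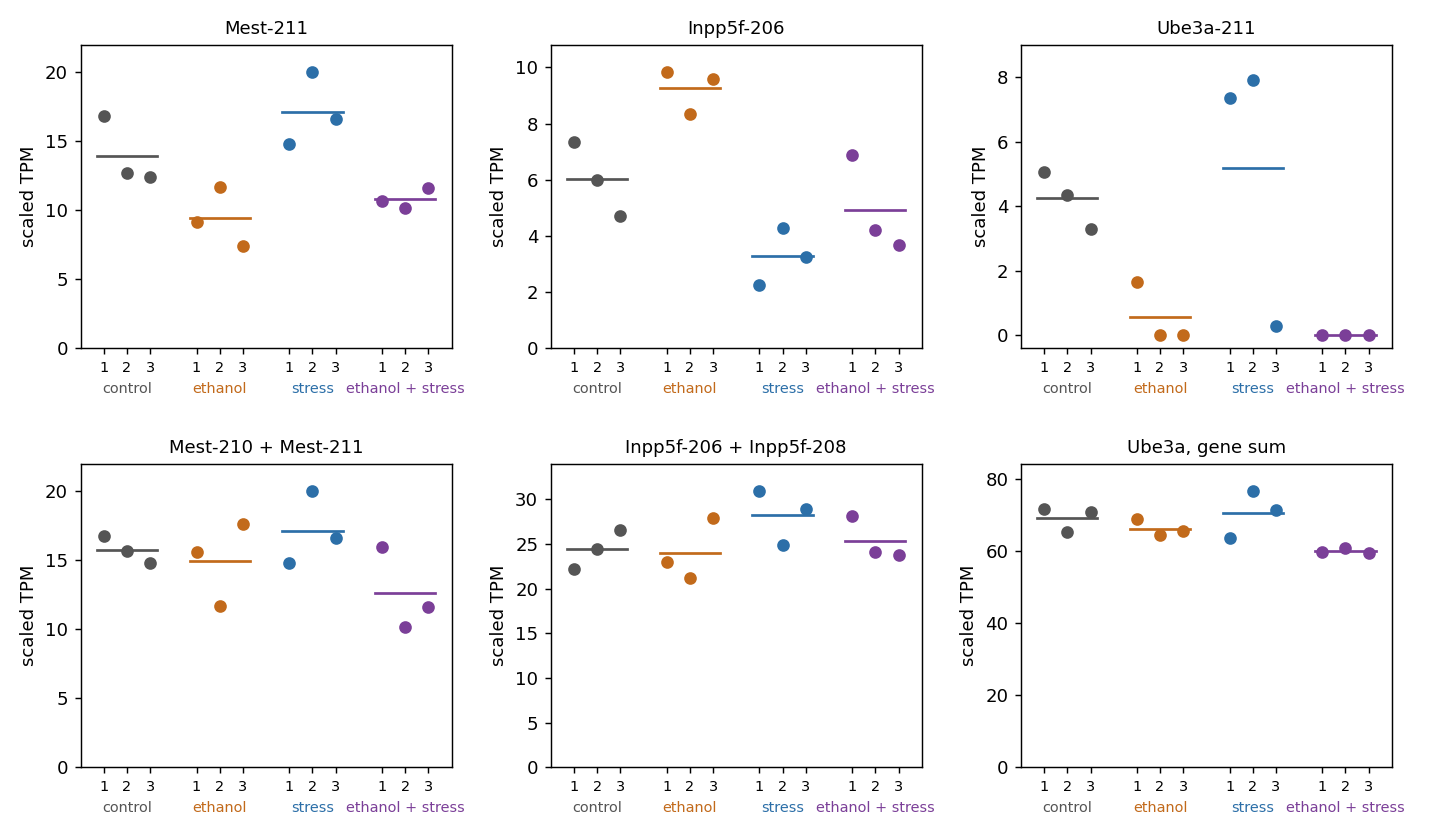
Isoforms of Mest, Inpp5f and Ube3a by library (x axis, replicate numbers within group; y axis, scaled TPM), with lines at group means of 3. The upper panels show single isoforms and the lower panels the joined pairs and the Ube3a gene sum, in which the group differences of the upper panels are smaller, at -0.26 for the ethanol main effect of joined Mest and 0.14 for the stress main effect of joined Inpp5f.

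The other called isoforms rested on a few read pairs. Ppp1r9a-202, a retained-intron transcript, was higher in ethanol by 1.06 on the log2 scale (adjusted p = 0.701), at 0.386, 0 and 0.42 scaled TPM in control and 1.18, 0.774 and 1.23 in ethanol, on 0 to 7.9 read pairs. Its control values were under the floor of 0.47 to 0.586. Nnat-209, a short coding isoform, had an interaction of -3.38 on the log2 scale (adjusted p = 1) on 0 to 6.5 read pairs.

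Other imprinted coding genes and the genes that keep imprints were taken from fixed lists. Of 27 further imprinted coding genes 23 were tested, and 0 were called in each of the 6 comparisons, with median log2 differences of -0.011, 0.055 and -0.009 for the 3 treated groups in the same order. Of 14 genes of imprint upkeep 13 were tested and 0 were called, with medians of 0.038, 0.018 and -0.13. Trim28, the corepressor that Zfp57 recruits, was at 99 to 150 scaled TPM, Zfp445, the other imprint-keeping zinc finger protein, at 59.8 to 74.3, and Zfp57 itself at 1.54 to 3.85. Dnmt1, which copies methylation at replication, was at 15 to 23.3, and Dppa3, a protector of imprints in the egg, was listed at 0 in every library. Of 10 imprinted noncoding genes only Gm5424 had values, at 0 in 11 libraries and 0.193 in ethanol 2, and the others were not analysed here.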

How the data were processed

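RNA from the hippocampus of 12 mice was sequenced as stranded, rRNA-depleted libraries. The authors assigned read pairs to mouse transcripts (mm10, the GRCm38 build) with kallisto and deposited a signal per transcript, TPM scaled between libraries, which sums to 889222 to 1173650 per library. The submitters' notes also name CASAVA and sleuth, and versions are not given in the sources used here. Transcripts were joined to GENCODE release M21 by identifier (113580 of 115270 found) and summed per gene.

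Features at 0.1 or more in at least 6 libraries were fitted as log2(value + 0.5) with limma 3.58.1 in R 4.3.3 (lmFit, eBayes with trend, group means, two-sided). sleuth, which the study used, needs files not used here. The threshold for a call was the unadjusted p of 0.01 that the study used, and adjustment was by Benjamini-Hochberg over all features tested. Read pairs came from the steps of low values, of which 79.7% to 83.1% were whole within 0.1, and served for floors of 3 read pairs, which cover counting error only. Shared sequence was counted in 31-base words. Python 3.11.15, pandas 2.3.3, NumPy 2.4.6, SciPy 1.17.1 and matplotlib 3.10.9 were used, and the fit was tested on simulated data.

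Named isoforms were the most abundant one per gene, every called one, and those with 10% or more of Gnas, Grb10, H13, Inpp5f, Blcap, Snrpn, Ndn, Ube3a, Mest or Peg3. The members and lists were chosen with earlier results of these data known. Alternatives covered pseudocount, filter, scaling, trend, samples, replicate block and each library left out. Added after seeing the data were removal of the length trend, leaving out 3 libraries, sums of coding transcripts, and 2 joined isoform pairs. Replicate numbers mark no shared animal or litter in the labels.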

Additional observations from a re-analysis of the deposited data

Results flagged for a closer look

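Nnat-209, a short coding isoform of Nnat, is listed because its difference under ethanol differed between mice with and without separation, by the interaction term of the limma fit (-3.38 on the log2 scale, SE 0.98, adjusted p = 1, unadjusted 0.00553). Its values were 0.136, 0 and 1.53 scaled TPM in control, 1.08, 4.62 and 2.47 in ethanol, 1.24, 2.84 and 2.05 in stress, and 0, 1.48 and 0 in ethanol + stress. The floor of 3 read pairs was 1.74 to 2.17 scaled TPM, so that every control and ethanol + stress value lay under it. Nnat-209 is a minor isoform beside Nnat-205, which was at 218 to 280.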

How the results depend on the processing

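All alternatives left the ethanol, stress and interaction counts of gene sums at 0, except that without stress 1 Igf2 was called in stress (0.63). The count in ethanol + stress became 0 when values were rescaled to the same sum, with the replicate block, without the 3 libraries of low length slope and with coding transcripts alone, and the ethanol main effect became 1 under the last 2 (Commd1 at -0.25 and Ube3a at -0.21). Leaving out each library gave 0 to 0 in ethanol, 0 to 1 in stress, 0 to 4 in ethanol + stress, 0 to 0 in the interaction, 0 to 3 in the ethanol main effect (the 3 without ethanol + stress 1) and 0 to 1 in the stress main effect. Igf2 in ethanol + stress stayed between 0.42 and 0.66 and was called under 17 of 25 alternatives.

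For isoforms, the count in ethanol became 2 with a pseudocount of 0.1, the filter on the mean, no filter, rescaling, no trend, the replicate block and the length trend removed, 3 with median-of-ratios scaling and without the 3 libraries, and 0 at a minimum of 1. In ethanol + stress it became 2 with rescaling and the block and 0 without the 3 libraries. The interaction became 2 with no filter, the length trend removed and without the 3 libraries, and the stress main effect 1 with rescaling and no trend and 3 with the block. The ethanol main effect became 3 with rescaling, no trend and the block. Without the 3 libraries it stayed at 2 and so did the stress main effect, but Ube3a-211, Inpp5f-206 and Inpp5f-208 lost their calls there and other isoforms gained one (Inpp5f-206 in the ethanol main effect, 1 isoform each of H13 and Gnas in the stress main effect). That setting leaves 1 ethanol + stress mouse, which is assumed to vary like the other groups. Leaving out each library gave 1 to 3, 0 to 2, 1 to 2, 0 to 2, 2 to 4 and 1 to 3 in the order above. Inpp5f-206 turned from -0.84 to 0.14 when joined with Inpp5f-208, as the join itself makes it. Nnat-209 was called under 15 of 23 alternatives, Ppp1r9a-202 under 16 of 23 and Inpp5f-208 under 14 of 24. Where a cause is not named, the cause was not tested.

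Same-numbered libraries did not deviate together: correlations of deviations were -0.061 to 0.057 over 18 pairs of the same number, against -0.1 to 0.14 over 36 pairs of different numbers. With the replicate block Igf2 in ethanol + stress stayed at 0.56 with an unadjusted limma p of 0.0122. With 3 mice per group and members under 2 scaled TPM resting on 9 to 49 read pairs, small changes of Magel2, Mkrn3, Dlk1 and Rtl1 were not detectable.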
